A study of Homo sapiens with 4 samples.

Results

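Mitosis and G2/M genes encode the proteins that carry a cell from the end of DNA replication through chromosome segregation to division. The set described here holds 50 of them, taken by symbol from the protein-coding rows of a count table of 58735 genes, and each symbol was found there. Positions are given on hg38, the build of that table. The cells were HCC1954, an established breast cancer line with abundant ERBB2 (HER2). In 2 samples (shCON) the cells received a scrambled hairpin, and in 2 samples (shZDHHC15) a hairpin against ZDHHC15, a palmitoyltransferase that the study examines as a regulator of YAP signaling. Total RNA was sequenced, and the comparison asks how transcript levels differ once ZDHHC15 is silenced. The series' design calls the knockdown stable, whereas the sample protocol describes a transient lipid transfection of the hairpin plasmids with harvest after 36 hours, and the labels do not say which applies to these samples. They also do not say whether the numbers 1 and 2 mark separate cultures or different hairpins, so the p-values measure only the spread between these samples, which may be technical. Both groups come from 1 cell line. The study's methods mention monoclonal cultures that were screened for the hairpins by western blot. If these samples are such clones, an effect of the hairpin and a difference between clones cannot be told apart.

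The transcripts of these genes accumulate from late S phase and peak in G2 and mitosis, and many of their proteins are destroyed again as cells leave mitosis. In their promoters the MuvB complex binds a short element called CHR (cell cycle genes homology region), as part of the repressive DREAM complex in resting cells and together with MYBL2 and FOXM1 in dividing cells, and NF-Y binds nearby CCAAT boxes. In breast tumors, high levels of these transcripts are a familiar sign of proliferation. In bulk RNA, a smaller share of cells in G2 or mitosis and less of these transcripts per cell cannot be told apart.

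The largest falls in ZDHHC15-depleted cells were in genes of anaphase onset (CDC20, PTTG1), mitotic entry (PLK1, AURKA), late-mitotic transport (KIF20A) and centromere identity (CENPA), which stood at between 31.02% and 43.3% of their shCON level. All 50 genes passed the filter on low counts. Genes were called at an adjusted p under 0.05 in the quasi-likelihood test of edgeR, adjusted by the Benjamini-Hochberg method over all 15817 genes tested. Of the 50 genes, 26 were lower and 3 (MKI67, TOP2A and MELK) were higher in shZDHHC15 cells, and 21 were not called. Among all genes tested, 20.3% were called lower, 21.7% higher and 42.0% in either direction. The 6 genes named first also had a log2 fold change below -1, against 3.79% of all genes tested, and 0 of the 50 rose by more than 1 on that scale, against 7.51%. The median log2 fold change of the 50 genes was -0.34 (quartiles -0.77 and -0.11), and 41 of them had a negative value. Over all genes tested the median was 0.02, with quartiles at -0.33 and 0.41. Both shZDHHC15 samples lay below both shCON samples for 38 of the 50 genes (35.3% of all genes tested) and above both for 4 (37.2%), and the groups overlapped for 8. Together the 50 genes took 0.644% and 0.585% of the counts in the shCON samples and 0.482% and 0.462% in the shZDHHC15 samples. After TMM normalization, which puts the samples on a common library size (CPM, normalized counts scaled to library size), that was 6533 and 6095 CPM against 4714 and 4502. The shZDHHC15 samples were both below the shCON samples in this sum, but with 2 samples in each group the smallest two-sided p of an exact permutation test is 0.333.

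**Figure D1:**
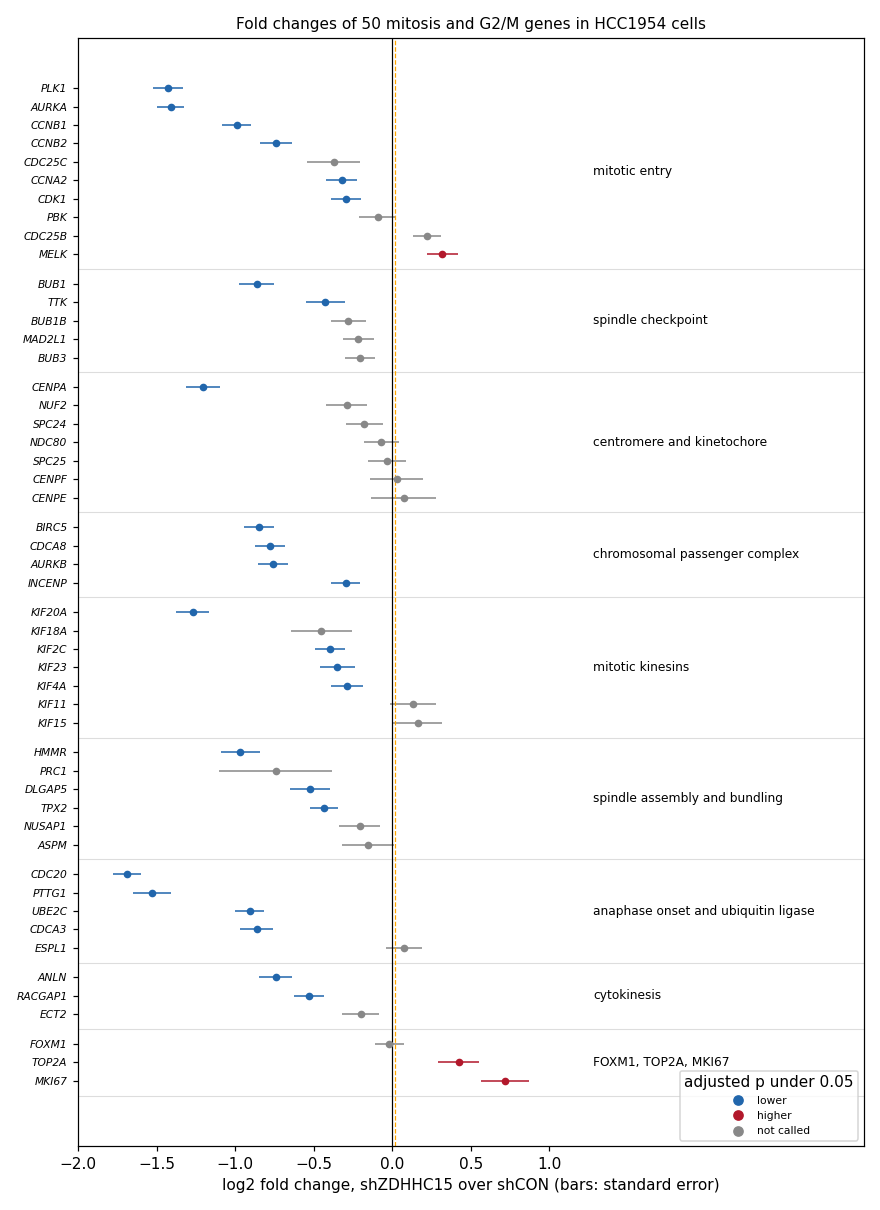
Log2 fold change of each of the 50 mitosis and G2/M genes, shZDHHC15 over shCON, with bars of 1 standard error, grouped by role. Blue points are the 26 genes called lower, red points the 3 called higher and grey points the 21 not called; the dashed line is the median of all genes tested, 0.02.

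The silenced gene, ZDHHC15, had 17617 and 15716 counts in shCON and 0 in each shZDHHC15 sample, at least 6045-fold lower against a floor of 3 counts per library, which allows for counting error alone. The counts summed to between 17560982 and 19118704 per sample. The samples of a group differed by more than counting noise, with a chi-square per degree of freedom of 8.32 for shCON and 6.79 for shZDHHC15. The cell line's label was checked against 8 epithelial markers, all of which were detected, with ERBB2 at between 92598 and 101910 counts. Of the 8, 6 were called lower with the silencing (75%, against 20.3% of all genes tested), with the largest fall in KRT8 (log2 fold change -1.62). EPCAM (-0.35), GRHL2 (-0.29) and ERBB2 (-0.24, adjusted p = 0.0332) had smaller falls. ERBB2 ran from -0.31 to -0.20 when each sample was left out. EPCAM was at -0.21 and not called (adjusted p = 0.076) with the correction for gene length described below. KRT19 was called higher (0.44), and CDH1 was not called (-0.05, adjusted p = 0.706). The summed level of the epithelial list was 16768 and 18094 CPM in shCON and 9652 and 9795 CPM in shZDHHC15. Of 2 hormone receptor markers, PGR had at most 1 count in any sample. The other, ESR1, had 161 and 103 counts in shCON and 308 and 305 in shZDHHC15. It was called higher (log2 fold change 1.09, adjusted p = 2.13e-04), with values from 0.85 to 1.36 when each sample was left out. Markers of other cell types were checked as well. Of 6 leukocyte markers, CD3E was at 0 in every sample, and the list summed to between 0.415 and 0.987 CPM in shCON and 1.73 and 1.93 in shZDHHC15. Most of the shZDHHC15 sum was CD14, with 9 and 5 counts in shCON and 25 and 22 in shZDHHC15. On these low counts CD14 was called higher (log2 fold change 1.61, adjusted p = 0.0159), with values from 1.29 to 2.00 when each sample was left out. The 5 fibroblast markers summed to between 5.81 and 7.17 CPM in shCON and between 8.51 and 11.5 in shZDHHC15. LUM was at 0 in every sample. Most of the sum was COL1A1, with 100 and 120 counts in shCON and 214 and 161 in shZDHHC15. COL1A1 was called higher (log2 fold change 0.65, adjusted p = 0.0232), and its value ran from 0.38 to 0.87 when each sample was left out. With the correction for gene length described below it was at 0.41 and not called (adjusted p = 0.13). The 4 endothelial markers summed to 57.1 CPM in each shCON sample and to between 101 and 107 CPM in shZDHHC15, where PECAM1 had 666 and 405 counts against 75 and 56, while VWF had at most 7 counts in any sample. Of the other two, CDH5 was called higher (log2 fold change 0.65) and KDR lower (-0.64, adjusted p = 0.0227), with 159 and 121 counts in shCON against 108 and 87; KDR was not called without shCON 1 (adjusted p = 0.0932) or without shZDHHC15 2 (0.164). The part of these lists in the results was not tested. Of the 50 genes, 20 share exon bases with another annotated gene, and whether counting used the strand is not given in the sources used here. Apart from PRC1 and NUSAP1, described with their values, the longest shared parts were 15.9% of FOXM1 with ITFG2, 11.6% of PLK1 with AC008870.3, both on the opposite strand, and 10.2% of BUB1B with BUB1B-PAK6 on the same strand.

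Promoters were searched because the CHR and the CCAAT box are known elements of G2/M promoters. Of the 50 symbols, 41 had an entry in the RefSeq promoter table (build GRCh38.p14), which holds 250 bases before and 50 after each listed start. TPX2, FOXM1, BIRC5, TTK, PBK, BUB3, UBE2C, RACGAP1 and AURKA were the others. The search was for the CHR-like hexamers TTTGAA and TTCGAA and for the CCAAT box, each on both strands, with any listed start of a gene counted. TTCGAA reads the same on both strands, and matches that overlap, as the second hexamer and a CCAAT box of MKI67 do, were counted separately. The following lines show the 120 bases before the start, 5′ to 3′ on the gene's strand, with the matches in capitals (TTCAAA and ATTGG are the reverse strands of TTTGAA and CCAAT). CDC20, PLK1, CENPA, CCNB1, CCNB2 and KIF20A are shown for their falls, KIF11 as a gene that was not called, and TOP2A and MKI67 for their rises.
CDC20 (chr1:43358861-43358980, plus strand): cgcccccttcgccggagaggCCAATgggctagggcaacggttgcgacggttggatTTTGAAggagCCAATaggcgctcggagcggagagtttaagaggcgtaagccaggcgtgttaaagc
PLK1 (chr16:23678769-23678888, plus strand): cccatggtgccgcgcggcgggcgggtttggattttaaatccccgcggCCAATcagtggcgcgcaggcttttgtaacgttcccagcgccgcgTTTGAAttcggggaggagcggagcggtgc
CENPA (chr2:26785936-26786055, plus strand): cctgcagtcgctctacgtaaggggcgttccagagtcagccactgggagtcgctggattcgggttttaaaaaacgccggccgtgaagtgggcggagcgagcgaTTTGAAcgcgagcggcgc
CCNB1 (chr5:69167030-69167149, plus strand): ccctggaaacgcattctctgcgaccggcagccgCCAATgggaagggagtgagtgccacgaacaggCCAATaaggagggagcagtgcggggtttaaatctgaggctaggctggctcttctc
CCNB2 (chr15:59105026-59105145, plus strand): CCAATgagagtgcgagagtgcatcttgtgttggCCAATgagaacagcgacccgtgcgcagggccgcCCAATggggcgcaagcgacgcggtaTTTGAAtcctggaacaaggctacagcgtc
KIF20A (chr5:138178992-138179111, plus strand): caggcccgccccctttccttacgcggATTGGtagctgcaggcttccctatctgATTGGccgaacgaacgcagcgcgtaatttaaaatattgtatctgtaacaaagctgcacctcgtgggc
KIF11 (chr10:92593010-92593129, plus strand): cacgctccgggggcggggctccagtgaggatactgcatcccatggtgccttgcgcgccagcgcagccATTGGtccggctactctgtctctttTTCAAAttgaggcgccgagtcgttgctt
TOP2A (chr17:40417897-40418016, minus strand): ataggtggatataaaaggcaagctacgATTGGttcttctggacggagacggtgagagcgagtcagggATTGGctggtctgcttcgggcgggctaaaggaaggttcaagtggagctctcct
MKI67 (chr10:128126424-128126543, minus strand): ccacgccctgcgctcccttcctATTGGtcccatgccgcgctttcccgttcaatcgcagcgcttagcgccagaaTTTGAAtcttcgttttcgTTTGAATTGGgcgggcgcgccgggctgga

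A CHR-like hexamer lay in the window of 32 of the 41 genes (78.0%), against 19.5% of the 27305 genes in the promoter table. The CCAAT box was found in 33 of the 41 (80.5%, against 39.7%), and both elements in 27 of them (65.9%, against 7.85%). By direction of change, the hexamer was in 14 of 20 genes that were called lower (70.0%), in 16 of 18 that were not called (88.9%) and in 2 of 3 that were called higher. The CCAAT box was in 18 of the 20 (90.0%), 13 of the 18 (72.2%) and 2 of the 3, and no difference between these groups was tested. As the lines above show, CCNB1 and KIF20A fell without a hexamer in the window, while TOP2A has its hexamers upstream of the printed part and MKI67 holds a pair close to the start. Where the elements were present, the hexamer sat nearer the start, with a median first base at position -28 against -79 for CCAAT. A match is a description of letters and says nothing of whether a factor was bound there.

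Among the 10 regulators of mitotic entry, 6 fell, 1 rose and 3 were not called (60% lower and 10% higher). For this and the role groups below, the shares over all genes tested were 20.3% lower and 21.7% higher. The role groups hold few genes, and no share was tested. PLK1, a kinase that triggers entry and drives centrosome maturation, lies on chromosome 16 from 23677656 to 23690367 (ENSG00000166851) and was at 210.03 and 216 CPM in the shCON samples and 77.1 and 81.2 in the shZDHHC15 samples, a log2 fold change of -1.43 (SE 0.09, adjusted p = 2.46e-08). AURKA, the centrosomal kinase that activates PLK1, lies on chromosome 20 from 56369389 to 56392337 (ENSG00000087586) and went from 643 and 674 CPM to 247 and 248, a log2 fold change of -1.41 (SE 0.09, adjusted p = 1.17e-08). For both kinases the 2 groups were far apart and the samples within a group lay close together. CCNB1, the cyclin that activates CDK1 for entry, was at 202 and 215 CPM in shCON and 106 and 104 in shZDHHC15, 50.4% of its control level (log2 fold change -0.99, SE 0.09, adjusted p = 1.07e-06). CCNB2, its relative, was at 69.4 and 69.96 CPM in shCON and 40.5 and 42.8 in shZDHHC15 (log2 fold change -0.74, SE 0.10). The partner kinase CDK1 and the A-type cyclin had smaller fold changes, and the difference was not tested. CDK1 was at 123 and 119.6 CPM in shCON and 96.4 and 101 in shZDHHC15 (log2 fold change -0.29, SE 0.09, adjusted p = 0.0209), and CCNA2, which acts in S phase and G2, had a log2 fold change of -0.32 (SE 0.10, adjusted p = 0.0152). The groups did not overlap for either gene, although the fall was small. MELK, a kinase of proliferating cells, rose from 90.2 and 85.8 CPM to 113 and 107 (log2 fold change 0.32, SE 0.10, adjusted p = 0.015). The phosphatase CDC25B, which activates CDK1, was above shCON in both shZDHHC15 samples but was not called (log2 fold change 0.22, adjusted p = 0.0548). Its relative CDC25C (-0.37, adjusted p = 0.0921) and the kinase PBK (-0.09, adjusted p = 0.561) were not called either.

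Of the 5 spindle checkpoint genes, which hold anaphase until every chromosome is attached, 2 fell and 3 were not called. BUB1, a kinase that builds the checkpoint platform at kinetochores, was at 87.9 and 83.6 CPM in the shCON samples and 51.7 and 42.6 in the shZDHHC15 samples (log2 fold change -0.86, SE 0.11, adjusted p = 2.84e-05). TTK (MPS1), the kinase that starts checkpoint signaling, was at 46.7 and 39.01 CPM in shCON and 29.97 and 33.9 in shZDHHC15 (log2 fold change -0.42, SE 0.12, adjusted p = 0.013). Neither gene's groups overlapped, and BUB1 had the larger gap. The 3 components of the soluble inhibitor that blocks CDC20 had smaller values that were not called. BUB1B had a log2 fold change of -0.28 (adjusted p = 0.0537), MAD2L1 of -0.22 (0.0919) and BUB3 of -0.21 (0.0911). A 618-base stretch of MAD2L1 is near-identical (97.7%) to a processed pseudogene, so its reads could be split.

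In the centromere and kinetochore group only CENPA was called among 7 genes (14.3% lower, against 20.3% of all genes tested). CENPA, the histone variant that marks the centromere, lies on chromosome 2 from 26764289 to 26801067 (ENSG00000115163) and went from 70.8 and 76.3 CPM in the shCON samples to 31.2 and 32.5 in the shZDHHC15 samples, 43.3% of the control level (log2 fold change -1.21, SE 0.11, adjusted p = 6.40e-07). Its 2 groups were well separated. All 4 subunits of the NDC80 complex, which grips the microtubule end, were not called. NDC80 was at 44.7 and 39.9 CPM in shCON and 40.9 and 39.7 in shZDHHC15, a log2 fold change of -0.07 (adjusted p = 0.648), with overlapping groups. SPC25 (-0.03), SPC24 (-0.18) and NUF2 (-0.29) had adjusted p-values of 0.861, 0.25 and 0.0882. The difference between CENPA and the NDC80 subunits was not itself tested. CENPF, a large outer kinetochore protein, had 191 and 110.3 CPM in shCON samples 1 and 2 and 157 and 151 in shZDHHC15, and CENPE, a kinetochore motor, had 24.1 and 13.04 CPM in shCON and 21.1 and 18.3 in shZDHHC15. For both genes shCON 2 lay below and shCON 1 above the shZDHHC15 samples, and the spread within shCON exceeded the difference between groups. CENPF had a log2 fold change of 0.45 (adjusted p = 2.33e-04) without shCON 1 and of -0.32 (adjusted p = 0.00808) without shCON 2, and CENPE of 0.56 (0.00501) and -0.31 (0.112), so the direction for both depended on which shCON sample was kept.

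Every gene of the chromosomal passenger complex, which corrects faulty attachments and later moves to the midzone, was called lower. BIRC5 (survivin) was at 205 and 225 CPM in the shCON samples and 120.5 and 118 in the shZDHHC15 samples (log2 fold change -0.85, SE 0.09, adjusted p = 5.69e-06). CDCA8 (borealin) went from 119.96 and 124 CPM to 71.9 and 70.1 (log2 fold change -0.78, SE 0.10, adjusted p = 1.59e-05). AURKB, the kinase of the complex, went from 128 and 136 CPM to 77.7 and 78.5 (log2 fold change -0.76, SE 0.10, adjusted p = 2.09e-05). The groups did not overlap for any of these 3 subunits. INCENP, the scaffold, was at 155 and 148 CPM in shCON and 126 and 121 in shZDHHC15, also without overlap, and its fall was smaller (log2 fold change -0.29, SE 0.09, adjusted p = 0.019).

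The 7 mitotic kinesins divided into 4 that fell and 3 that were not called. KIF20A (MKLP2), which carries the passenger complex to the midzone, lies on chromosome 5 from 138178719 to 138187715 (ENSG00000112984) and was at 121 and 123 CPM in the shCON samples and 54.8 and 46.7 in the shZDHHC15 samples (log2 fold change -1.27, SE 0.11, adjusted p = 3.22e-07). Its 2 groups were far apart. KIF2C (MCAK), a microtubule depolymerase, was at 153 and 152 CPM in shCON and 122 and 110.4 in shZDHHC15 (log2 fold change -0.39, adjusted p = 0.00388). KIF23 (MKLP1), a subunit of centralspindlin, was at 125 and 102 CPM in shCON and 84.5 and 93.4 in shZDHHC15 (-0.35, adjusted p = 0.0201), and the chromokinesin KIF4A at 92.5 and 86.9 CPM in shCON and 78.1 and 68.98 in shZDHHC15 (-0.29, adjusted p = 0.0366). For these 3 motors every shZDHHC15 sample was below every shCON sample, by smaller gaps than for KIF20A. KIF18A, which limits chromosome oscillations, had a log2 fold change of -0.45 (adjusted p = 0.076) on a low level, between 8.22 and 13.4 CPM. The motors that push the spindle poles apart had positive values that were not called, KIF11 of 0.13 (adjusted p = 0.503) and KIF15 of 0.16 (adjusted p = 0.428). KIF11 was at 61.1 and 40.97 CPM in shCON samples 1 and 2 and 58.5 and 53.6 in shZDHHC15, so its groups overlapped, and its log2 fold change was 0.42 (adjusted p = 0.0037) without shCON 1 and -0.14 (0.416) without shCON 2.

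Of 6 genes for spindle assembly and bundling, 3 fell. HMMR, a spindle and centrosome protein, was at 38.9 and 33.97 CPM in the shCON samples and 18.7 and 18.6 in the shZDHHC15 samples (log2 fold change -0.97, SE 0.13, adjusted p = 2.73e-05). DLGAP5 (HURP), which stabilizes kinetochore fibers, went from 66.8 and 53.1 CPM to 45.01 and 38.4 (log2 fold change -0.53, adjusted p = 0.00419). TPX2, the activator of AURKA on the spindle, went from 332 and 337 CPM to 251 and 244 (log2 fold change -0.43, adjusted p = 0.00105). The groups were apart for all 3 genes, and HMMR had the largest relative fall. ASPM, a spindle pole protein, was not called (log2 fold change -0.15, adjusted p = 0.489), with 79.7 and 48.97 CPM in shCON samples 1 and 2, on either side of the 62.03 and 53.8 in shZDHHC15, and without shCON 2 its value was -0.47 (adjusted p = 3.41e-04). The microtubule bundlers NUSAP1 (-0.21, adjusted p = 0.227) and PRC1 (-0.74, adjusted p = 0.113) were not called, and their values are uncertain. PRC1 shares 57.6% of its exon bases with AC068831.7 on the same strand and received only between 18 and 32 counts per sample, while that gene received between 53 and 104. NUSAP1 shares 62.2% with AC087721.2, which was at 0 in every sample, and had between 325 and 364 counts.

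The anaphase group held the largest falls of all, with 4 of its 5 genes called lower. CDC20, the activator that turns the anaphase-promoting complex on at metaphase, lies on chromosome 1 from 43358955 to 43363203 (ENSG00000117399) and was at 352 and 355 CPM in the shCON samples and 109 and 109.99 in the shZDHHC15 samples, 31.02% of its control level (log2 fold change -1.69, SE 0.09, adjusted p = 2.19e-09). PTTG1 (securin), which that complex destroys to release separase, lies on chromosome 5 from 160421822 to 160428744 (ENSG00000164611) and was at 71.5 and 88.4 CPM in shCON and 28.5 and 26.9 in shZDHHC15 (log2 fold change -1.53, SE 0.12, adjusted p = 2.05e-07). The samples of each group were close together for CDC20 and somewhat further apart in shCON for PTTG1, and no groups overlapped. UBE2C, the ubiquitin-conjugating enzyme of the complex, was at 272 and 275 CPM in shCON and 141 and 150.3 in shZDHHC15 (log2 fold change -0.91, adjusted p = 2.00e-06). CDCA3, an F-box-like protein of ubiquitin-dependent turnover, was at 68.1 and 68.00 CPM in shCON and 37.97 and 36.8 in shZDHHC15 (log2 fold change -0.86, adjusted p = 1.36e-05). ESPL1 (separase), the protease that cuts cohesin, was the exception, at 45.9 and 43.4 CPM in shCON and 50.1 and 43.9 in shZDHHC15, with overlapping groups (log2 fold change 0.07, adjusted p = 0.631). A 254-base stretch of CDC20 is near-identical (98.8%) to a noncoding gene and a 170-base stretch of AURKA to a pseudogene (97.6%).

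In the cytokinesis group ANLN and RACGAP1 fell and ECT2 was not called. ANLN (anillin), the scaffold of the contractile ring, was at 378 and 302 CPM in the shCON samples and 202 and 204 in the shZDHHC15 samples (log2 fold change -0.74, SE 0.11, adjusted p = 6.11e-05). RACGAP1, the partner of KIF23 in centralspindlin, was at 103 and 104 CPM in shCON and 73.6 and 70.1 in shZDHHC15 (log2 fold change -0.53, adjusted p = 5.22e-04). The groups did not overlap for these genes, with a wider spread between the shCON samples for ANLN. ECT2, the exchange factor that activates RhoA at the equator, had a log2 fold change of -0.20 (adjusted p = 0.178).

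In the last group, the proliferation marker MKI67 and the chromosome enzyme TOP2A rose and the transcription factor FOXM1 was not called. FOXM1, which drives G2/M transcription, was at 124 and 125 CPM in the shCON samples and 123 and 122 in the shZDHHC15 samples, a log2 fold change of -0.02 (SE 0.09, adjusted p = 0.884), so its 4 samples were nearly level. MKI67 (Ki-67), the clinical proliferation marker, lies on chromosome 10 from 128096659 to 128126385 (ENSG00000148773) and rose from 239 and 151 CPM to 347 and 294 (log2 fold change 0.72, SE 0.16, adjusted p = 0.00188). TOP2A, the topoisomerase that untangles chromosomes, went from 341 and 248 CPM to 429 and 361 (log2 fold change 0.42, SE 0.13, adjusted p = 0.0159). Both shZDHHC15 samples were above both shCON samples for these genes, but shCON 2 lay well below shCON 1. Of the 3 genes called higher, MELK included, 0 were called under all 12 alternatives set for the report. MKI67 was not called with the DESeq2 Wald test (adjusted p = 0.0908) or when genes with low counts were kept (0.0647). With 1 sample left out it stayed called, but its log2 fold change was 0.41 without shCON 2 (adjusted p = 4.21e-04) and 1.06 without shCON 1. TOP2A was not called with those genes kept (adjusted p = 0.151), without shCON 2 (log2 fold change 0.20, adjusted p = 0.117) or without shZDHHC15 1 (0.29, 0.109), and MELK was not called with them kept (0.0607), without shZDHHC15 1 (0.28, 0.148) or without shZDHHC15 2 (0.35, 0.0576). Among the 50 genes 6 were called higher without shCON 1, 2 without shCON 2, 1 without shZDHHC15 1 and 2 without shZDHHC15 2.

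**Figure D2:**
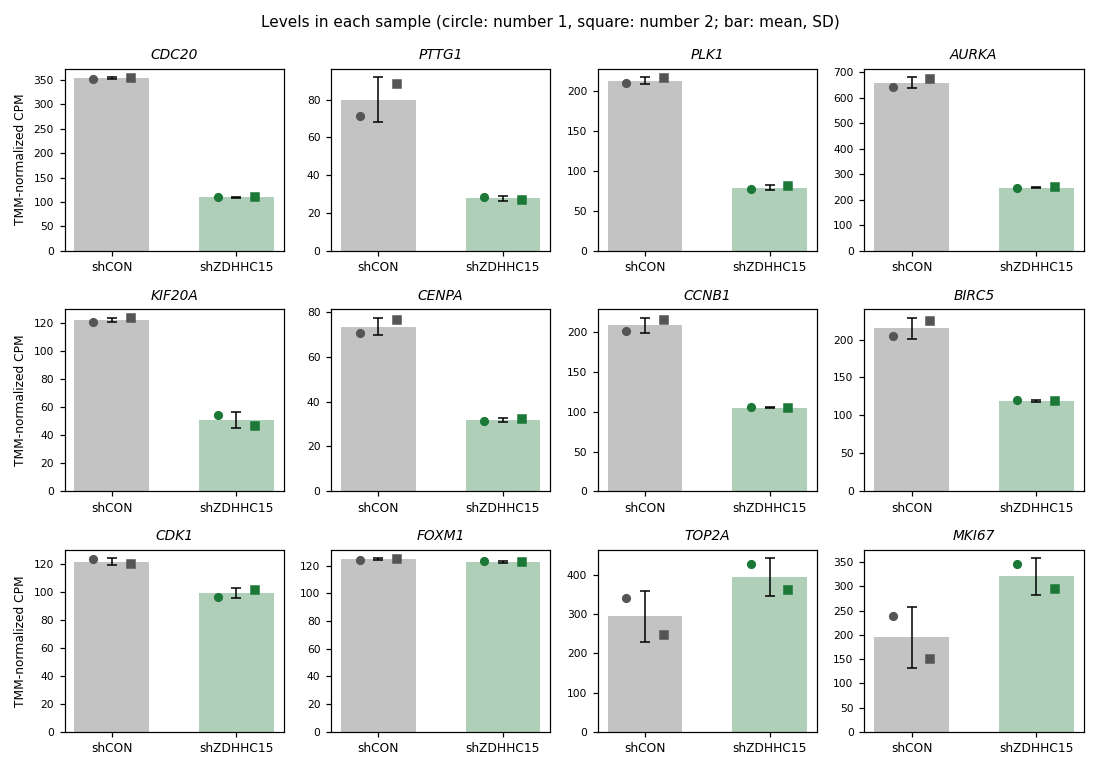
TMM-normalized CPM of 12 genes in each sample (circles, sample 1; squares, sample 2), with the group mean as a bar from 0 and the SD of 2 samples as an error bar. CDC20, PTTG1, PLK1 and AURKA sit in shZDHHC15 at between 31.02% and 37.6% of shCON, FOXM1 is nearly level, and MKI67 and TOP2A are higher, with the shCON samples apart.

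Of the 26 genes called lower, 19 were called under all 12 alternatives, and the other 7 were those with small falls. CCNA2, CDK1, INCENP, KIF4A and KIF23 were not called when counts were scaled by library size only (adjusted p between 0.0567 and 0.118). Without shZDHHC15 1 the log2 fold changes of CCNA2 (-0.36, adjusted p = 0.0601), CDK1 (-0.26, 0.192), TTK (-0.34, 0.118), INCENP (-0.33, 0.0872), KIF4A (-0.38, 0.051) and KIF23 (-0.28, 0.154) missed the limit. Without shZDHHC15 2 those of CCNA2 (-0.29, 0.128), CDK1 (-0.34, 0.0728), INCENP (-0.27, 0.153), KIF2C (-0.33, 0.0742) and KIF4A (-0.21, 0.319) missed it, as did KIF23 without shCON 1 (-0.23, 0.0926). Each kept its sign, and each of these fits rests on 3 samples. TTK, KIF4A and KIF23 were also not called when genes with low counts were kept (adjusted p between 0.0628 and 0.0941).

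Gene length, counted over all annotated exon bases of a gene, moved with the values. Over the 50 genes the log2 fold change and the log10 of the gene length had Pearson's r = 0.49 and Spearman's rho = 0.41, and over all 15817 genes tested r = 0.15 and rho = 0.24, with every gene taken from the same 4 libraries. The 6 genes of at least 8000 bases (BUB3, ESPL1, CENPE, ASPM, CENPF and MKI67) had a median change of 0.05 on the log2 scale and included 0 genes called lower, where all genes tested of that length had a median of 0.27. The 7 genes of 1500 to 2500 bases had a median of -0.78, and 5 of them were called lower, against a median of -0.20 for all genes tested of that length. The shCON samples differed along the same axis. The log2 ratio of shCON 2 to shCON 1 had r = -0.68 and rho = -0.66 with log10 length over the 50 genes, with a median of -0.68 in the 6 longest. Over all genes tested the values were r = -0.16 and rho = -0.26, with a median of -0.13 in genes of at least 8000 bases. Whether RNA quality or library preparation had a part in this was not tested. The correction that follows was fitted over all genes tested, so part of the steeper trend of the 50 genes may remain after it. With each sample's length trend removed (an alternative added after seeing the data), 28 genes were called lower and 4 higher, among them 25 of the 26 lower and all 3 higher genes, and CDC20, PLK1 and AURKA had log2 fold changes of -1.51, -1.43 and -1.30. The log2 fold change of MKI67, 0.72 before, was 0.42 there (adjusted p = 0.0123). In that fit CCNA2 lost its call (-0.20, adjusted p = 0.105), while BUB3 (-0.37), MAD2L1 (-0.27) and ASPM (-0.41) were called lower and CDC25B (0.25) higher.

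**Figure D3:**
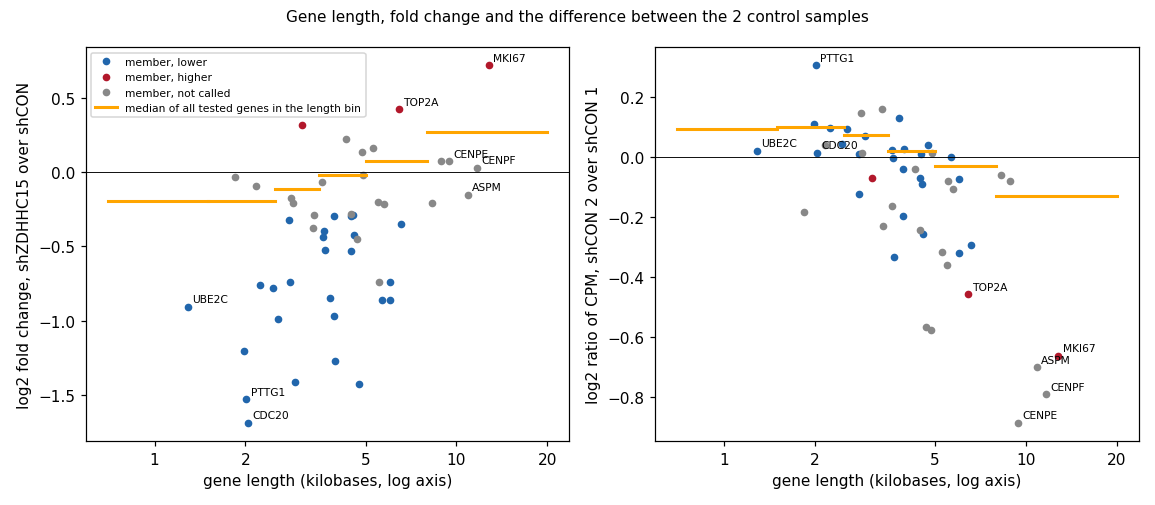
Left, log2 fold change of each of the 50 genes against gene length in kilobases on a log axis; right, the log2 ratio of CPM in shCON 2 to shCON 1 against the same axis. Orange segments are medians of all genes tested in a length bin; on the right, the 6 longest of the 50 genes have a median of -0.68.

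Per kilobase of gene length, AURKA (225 CPM per kilobase), UBE2C (213) and CDC20 (173) had the highest levels of the 50 in shCON cells. TPX2 (92.8), CCNB1 (81.6) and CDC25B (76.8) followed. This length counts all annotated exons of a gene, whichever were expressed, so the order between genes is approximate. In shZDHHC15 cells UBE2C came first (113), followed by CDC25B (89.5), AURKA (84.5), TPX2 (68.7), TOP2A (61.4) and CDC20 (53.8). CDC20 thus went from the third to the sixth place of this order. The lowest level in both groups was that of PRC1 (0.309 and 0.184 CPM per kilobase), with the exon overlap described above.

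Other genes of mitosis outside the 50 moved in both directions. In 4 further lists with 88 genes in all, 31 were called lower (35.2%) and 11 higher (12.5%). Over all genes tested these shares were 20.3% and 21.7%. The median change of the 88 genes was -0.15 on the log2 scale. The 11 became 3 without shCON 2 and 5 without shZDHHC15 1. By role, 7 of 17 other regulators of entry and exit fell and 1 rose (41.2% and 5.88%, median -0.16). CKS2, a CDK1-binding subunit, had the largest fall there (log2 fold change -1.22, SE 0.10, adjusted p = 2.99e-07), with 2518 and 2596 counts in shCON and 1206 and 1193 in shZDHHC15, and MASTL (Greatwall kinase) was the gene that rose (0.89, SE 0.12). Among 35 other checkpoint, kinetochore and centromere genes 8 fell and 4 rose (22.9% and 11.4%, median -0.13), from SKA2 (-0.87) to KNTC1 (0.92). Among 27 other motor and spindle genes 8 fell and 5 rose (29.6% and 18.5%, median -0.02), from PSRC1 (-0.74) to KIF2A (0.46). KIF2A was not called without shCON 2 (log2 fold change 0.27, adjusted p = 0.117). Of 9 other genes of cytokinesis and late mitosis 8 fell and 1 rose (88.9% and 11.1%, median -0.60), from DEPDC1 (-1.07) to CIT (0.34). KNTC1 and CIT are 11325 and 13230 bases long, and both had fewer counts in shCON 2 than in shCON 1. CIT was not called without shCON 2 (log2 fold change 0.25, adjusted p = 0.141) or without shZDHHC15 1 (0.18, 0.446). With the length trend removed, 30 of the 31 lower calls and 7 of the 11 higher calls of these 4 lists were kept. The higher calls lost were CIT (0.018, adjusted p = 0.918), CLASP1 (0.16, 0.215), CLASP2 (0.052, 0.732) and HAUS3 (0.31, 0.0691), while KNTC1 was still called higher at 0.65. Subunits and partners of the anaphase-promoting complex fell in 8 of 17 cases and rose in 0 (47.1% and 0%, median -0.35). Of these, UBE2S, the enzyme that extends the chains begun by UBE2C, had the largest fall, from 10705 and 12276 counts to 4091 and 5089 (log2 fold change -1.46, SE 0.11, adjusted p = 1.50e-07), and its 2 groups did not overlap. With the length trend removed, 6 of the 8 lower calls of this list were kept.

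Chromosome structure and DNA replication genes had medians on the other side of 0. Over all genes tested 21.7% were called higher and 20.3% lower. Of 20 condensin and cohesin genes 10 rose and 4 fell (50% and 20%, median 0.40). The called genes ran from NCAPH2 (-0.57) to PDS5B, a cohesin regulator of 13212 bases (0.77). Of the 10 higher calls, 5 were kept without shCON 2 and 9 with the length trend removed, where PDS5B was at 0.46, and of the 4 lower calls 1 was kept without shZDHHC15 1 and 2 without shZDHHC15 2. Of 46 DNA replication and S phase genes 17 rose and 3 fell (37.0% and 6.52%, median 0.21). The list summed to 4733 and 4832 CPM in shCON and 5228 and 5123 in shZDHHC15. The 17 became 8 without shZDHHC15 1, 11 without shZDHHC15 2 and 26 with library size only. CCNE2, the cyclin of S phase entry, had the largest rise, from 729 and 551 counts to 1377 and 1507 (log2 fold change 1.05, SE 0.12, adjusted p = 5.81e-06), and GINS3 the largest fall (-0.46). Among 23 transcriptional regulators of cell cycle genes 6 rose and 1 fell (26.1% and 4.35%, median 0.05). E2F2 had the largest rise (0.98, SE 0.11), and the gene that fell was MYBL2, the MuvB partner of G2/M transcription, with 9902 and 9967 counts in shCON and 8151 and 9296 in shZDHHC15 (log2 fold change -0.32, SE 0.09, adjusted p = 0.011). MYBL2 was not called without shZDHHC15 1 (-0.26, adjusted p = 0.164) or with the length trend removed (-0.19, 0.0831). E2F1 (-0.23, adjusted p = 0.0812) and CDKN1A, an inhibitor of cyclin-dependent kinases (-0.24, 0.093), were not called. No test of one list against another was made.

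**Figure D4:**
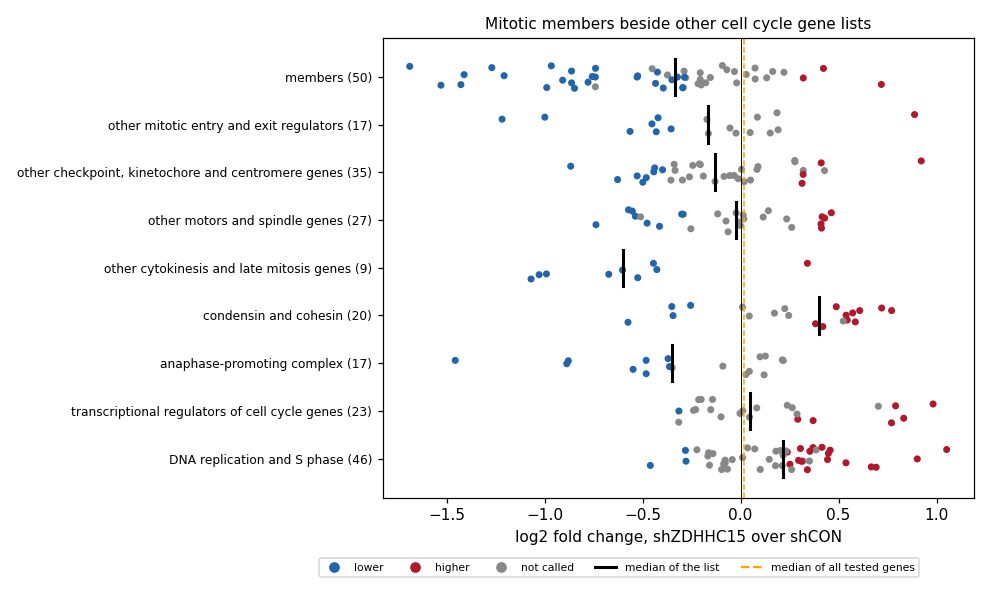
Log2 fold change, shZDHHC15 over shCON, of the 50 mitosis and G2/M genes (top) and of 8 other cell cycle lists, 1 point per gene (blue, called lower; red, called higher; grey, not called). Black bars are list medians, which run from -0.60 for other late-mitosis genes and -0.34 for the 50 genes to 0.40 for condensin and cohesin; the dashed line is the median of all genes tested.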

How the data were processed

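The authors deposited 1 table of raw counts of reads per gene for 4 libraries made with the NEBNext Ultra kit, not normalized, with gene positions and lengths. The submitters' processing notes name HISAT2, StringTie, SAMtools and hg38, while the counting tool, annotation and strand setting are not given in the sources used here. All 50 genes had the same start and end in GENCODE release 29. Groups came from the sample titles. Genes were filtered with filterByExpr and compared with edgeR 4.0.16 (R 4.3.3; TMM factors of 0.962 to 1.03, glmQLFit with legacy = FALSE, glmQLFTest), with Benjamini-Hochberg adjustment over 15817 genes and a limit of 0.05. The script was tested on simulated counts. The 50 genes, their 9 role groups, the other lists and the tests were chosen with earlier results of these data known. Genes named with values were those called, up to 4 per role group by size of change, 11 fixed regulators and markers, and the largest rise and fall of each other list, with MYBL2, E2F1 and CDKN1A; some results under this rule are not reported here. Other members are given by fold change, or by their samples where the samples of a group disagree. Near-identical stretches (at least 150 bases, 97% identity) were found with blastn 2.17.0. The alternatives were 3 other scalings (by size factors of DESeq2, by upper quartiles and by library size alone), the Wald test of DESeq2 1.42.0, 2 other filters, edgeR's legacy dispersion, a block for the replicate number and leaving out each sample. A correction for gene length was added after seeing the data (loess over all genes tested, span 0.3).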

Additional observations from a re-analysis of the deposited data

How the results depend on the processing

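The count of genes called lower stayed within 1.5 times the 26 reported under every alternative run, between 21 with library size only and 28 with the gene length trend removed, and between 20 and 33 when each sample was left out. The count called higher, 3 as reported, was 0 with no filter on low counts and ran from 1 to 6 when each sample was left out, and the count that rose by more than 1 ran from 0 to 1. The median log2 fold change of the 50 genes was -0.26 with library size only and ran from -0.41 to -0.29 when each sample was left out. Of the 88 other mitotic genes, 11 were called higher as reported, 7 with the DESeq2 Wald test, 3 with no filter and from 3 to 12 when each sample was left out. Of the 46 DNA replication genes, 17 were called higher as reported, 26 with library size only, 9 with no filter and from 8 to 14 when each sample was left out, and 3 were called lower as reported, 1 with library size only, 1 with no filter and from 1 to 5 when each sample was left out. The cause of these shifts was not tested.

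Single genes near 0 changed sign. NDC80 (0.0033), SPC25 (0.042) and FOXM1 (0.055) were above 0 with library size only, and CENPF was at -1.77e-04 with upper-quartile factors. With the gene length trend removed, PBK (0.076) and SPC25 (0.16) were above 0 and CENPE (-0.13), CENPF (-0.24) and ESPL1 (-0.12) below it. Leaving out shCON 1 turned SPC25 (0.034) and ASPM (0.21), and put CENPE at 0.56, CENPF at 0.45 and KIF11 at 0.42. Leaving out shCON 2 turned CENPE (-0.31), CENPF (-0.32) and KIF11 (-0.14), and leaving out shZDHHC15 1 turned CENPE (-0.031) and ESPL1 (-0.025). Without shCON 2, BUB1B, MAD2L1, CENPF (-0.32), NUF2, KIF18A, ASPM (-0.47) and ECT2 were called lower.

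Samples 1 and 2 of the groups share a number only, since the labels state no pairing and the deviations of same-numbered samples from their group means correlated at 0.034 over the genes tested. With the number as a replicate block, 27 of the 50 genes were called lower, among them all 26 of those reported, and 4 higher. The CHR-like hexamer was found in 73.2% of the 41 promoters with TTTGAA alone, and also within 100 bases before to 50 after the start. With 2 samples per group, a fit without 1 sample assumes that the lone sample varies like the other group.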
